A study of Mus musculus with 10 samples.

Results

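The chemokine genes that neutrophils are known to transcribe were followed here through all 10 arrays of the series: Ccl3, Ccl4, Ccl2, Ccl5, Ccl6, Ccl9, Cxcl1, Cxcl2, Cxcl3 and Cxcl10. These 10 genes were taken as a list by name, and each had 1 single-gene probe set among the 19938 genes that the array annotation names in this way. The cells were neutrophils enriched on a Percoll density gradient from the bone marrow of female C57BL/6 mice, 10 weeks old, and their RNA was hybridised to 10 Affymetrix Mouse Gene ST arrays. The groups were unstimulated wild type cells (3 arrays), unstimulated cells of Lcn2 knockout mice (3 arrays), wild type cells given fMLP (2 arrays) and Lcn2 knockout cells given fMLP (2 arrays), where stimulation lasted 20 minutes at 37 degrees with 10 micromolar peptide. Lcn2 encodes lipocalin 2, a neutrophil granule protein that binds bacterial iron carriers, and the series asks what its loss does to resting and to fMLP-stimulated neutrophils. fMLP is a formylated peptide of the bacterial kind that attracts and activates neutrophils through formyl peptide receptors. The labels do not say whether replicates came from separate animals or at what temperature the unstimulated cells were kept, so p-values measure only the spread between these arrays, which may be technical.

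Chemokines are small secreted proteins that guide leukocytes by binding receptors of the G protein-coupled kind. Neutrophils are themselves a source of some of them: the CC chemokines Ccl3 and Ccl4 draw monocytes, macrophages and lymphocytes, and the CXC chemokines Cxcl1, Cxcl2 and Cxcl3 draw further neutrophils through the receptor Cxcr2. Transcription of these inflammatory chemokines is a known early response to NF-kB, a transcription factor held inactive in resting cells, and their short-lived messages carry AU-rich elements that decay factors bind. Ccl6 and Ccl9 are rodent CC chemokines made by myeloid cells without a stimulus.

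The 6 CC members all lie on chromosome 11. Ccl5, Ccl9, Ccl6, Ccl3 and Ccl4 are consecutive chemokine genes there, with no other protein-coding gene of the RefSeq table between them, and Ccl2 lies apart beside Ccl7 and Ccl11. The 4 CXC members lie on chromosome 5, where Cxcl3, Cxcl1 and Cxcl2 form 1 block that also holds Cxcl15, and Cxcl10 lies apart. RefSeq sequences upstream of the start site (build GRCm38.p6) were at hand for 7 of the 10 members. They are printed for the members with the largest differences after fMLP, Ccl3 and Cxcl2, and for the relatives of Cxcl2 that share a stretch of sequence with it, Cxcl1, whose groups overlapped, and Cxcl3, which was below background and could not be read. Each line gives the 250 bases before the annotated start, 5′ to 3′ on the strand of the gene, and capitals mark the matches to the NF-kB motif.

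Ccl3 promoter (chr11:83649379-83649628, minus strand): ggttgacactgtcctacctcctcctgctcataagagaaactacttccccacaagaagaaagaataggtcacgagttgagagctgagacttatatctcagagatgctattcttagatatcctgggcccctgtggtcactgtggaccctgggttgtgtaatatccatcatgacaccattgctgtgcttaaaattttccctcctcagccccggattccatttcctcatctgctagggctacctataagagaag

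Cxcl2 promoter (chr5:90903649-90903898, plus strand): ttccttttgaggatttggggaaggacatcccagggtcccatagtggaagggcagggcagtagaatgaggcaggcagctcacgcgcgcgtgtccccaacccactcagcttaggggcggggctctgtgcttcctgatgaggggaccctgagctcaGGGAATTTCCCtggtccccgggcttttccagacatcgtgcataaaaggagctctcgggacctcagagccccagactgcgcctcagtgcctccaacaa

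Cxcl1 promoter (chr5:90890995-90891244, plus strand): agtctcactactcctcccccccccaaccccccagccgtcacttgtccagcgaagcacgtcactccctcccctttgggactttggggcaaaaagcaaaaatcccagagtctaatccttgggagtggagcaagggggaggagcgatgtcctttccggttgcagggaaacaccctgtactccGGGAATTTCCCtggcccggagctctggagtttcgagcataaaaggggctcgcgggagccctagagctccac

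Cxcl3 promoter (chr5:90785851-90786100, plus strand): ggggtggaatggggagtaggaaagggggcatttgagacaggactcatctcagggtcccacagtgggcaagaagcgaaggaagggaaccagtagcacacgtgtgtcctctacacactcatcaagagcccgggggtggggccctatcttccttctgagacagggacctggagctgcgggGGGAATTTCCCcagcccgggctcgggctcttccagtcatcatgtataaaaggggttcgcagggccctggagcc

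Cxcl1, Cxcl2 and Cxcl3 held the same 11-base palindrome, GGGAATTTCCC, which matches the NF-kB motif on both strands. It began 71 bases before the start of Cxcl1, 97 bases before that of Cxcl2 and 73 bases before that of Cxcl3. Ccl3 and Ccl6 had no match within the 250 bases, whereas Ccl9 had a match that began 35 bases before its start and Cxcl10 had matches that began 159, 104 and 103 bases before. In all, 5 of the 7 promoters held the NF-kB motif, against 7.25% of 32851 RefSeq mouse promoters of the same length searched on both strands. Other motifs searched on both strands were that of AP-1 (TGANTCA, in Ccl9 and Cxcl10, 2 of 7 against 6.75% of all promoters), the cyclic AMP response element (TGACGTCA, in 0 of 7 against 1.55%) and the TATA box (TATAAA, in Ccl9 and Cxcl3, 2 of 7 against 12.37%). A match is a description of letters in this window and was not tested as a binding site.

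The deposited values are RMA signals taken as log2. Array set 1 (unstimulated replicates 1 and 2, 4 arrays) had an interquartile range of 1.64 to 1.68, and array set 2 (the third unstimulated array of each genotype and all 4 fMLP arrays) had 2.47 to 2.59. Levels in the 2 sets are therefore not on 1 scale, and fMLP arrays were compared first with the unstimulated replicate 3 of their own genotype. Neutrophil markers (Camp, S100a8, Ly6g, Cxcr2 and others) were above background for 10 of 10 genes on every array. With all arrays, 0 of the 10 and 0 of 2 tested platelet markers were called between fMLP and unstimulated cells, where 0.192% of all tested genes were. Of the 10 neutrophil markers, 0 were higher and 3 lower on all fMLP arrays than on both unstimulated arrays of set 2. Among all tested genes these shares were 11.9% and 20.2%. Lcn2 was 13.88 to 14.16 on wild type arrays and 8.09 to 9.60 on knockout arrays, in keeping with every genotype label. The array of fMLP knockout replicate 2 stood apart, with the nerve cell gene Snap25 at 13.43 against 7.36 to 8.78 on the other 9. For most members the fMLP difference is therefore given with and without that array. All labels say female, but Eif2s3y, a gene of the Y chromosome, was 9.59 to 9.83 on both unstimulated arrays of set 2 and 5.36 to 6.48 on the fMLP arrays, and Xist, which female cells express, was 6.88 to 6.94 and 9.83 to 11.12 in these 2 groups. This difference runs with fMLP in set 2, so its part in the fMLP comparison cannot be told apart from the stimulus.

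Which of the 10 genes gave a signal was read from 1035 olfactory receptor probe sets, genes of odour sensing that neutrophils are not expected to use. A member counted as above background on an array when its value exceeded the 95th percentile of those probe sets there, which was 9.26 to 9.35 on the arrays of set 1 and 7.70 to 7.87 on those of set 2. On both unstimulated arrays of set 2, 8 of the 10 members were above it, and Cxcl3 and Cxcl10 were not. On all 4 fMLP arrays the number was again 8: Cxcl3 was below background, and Cxcl10 was above it on 3 of the 4. Of all 19938 genes, 59.4% were above this level on both unstimulated arrays of set 2 and 57.2% on all fMLP arrays; of the 14070 genes that passed the filter for testing, 83.1% and 80.3% were. Set 1 showed less: Ccl3, Ccl5 and Ccl6 were above background on all 4 arrays, Cxcl2 on 2, and the other 6 on none, where 11.5% of all genes were above it on every array. With the 99th percentile as the limit, the members above it on all fMLP arrays were 5: Ccl3, Ccl4, Ccl5, Ccl6 and Cxcl2, against 36.4% of all genes.

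**Figure D1:**
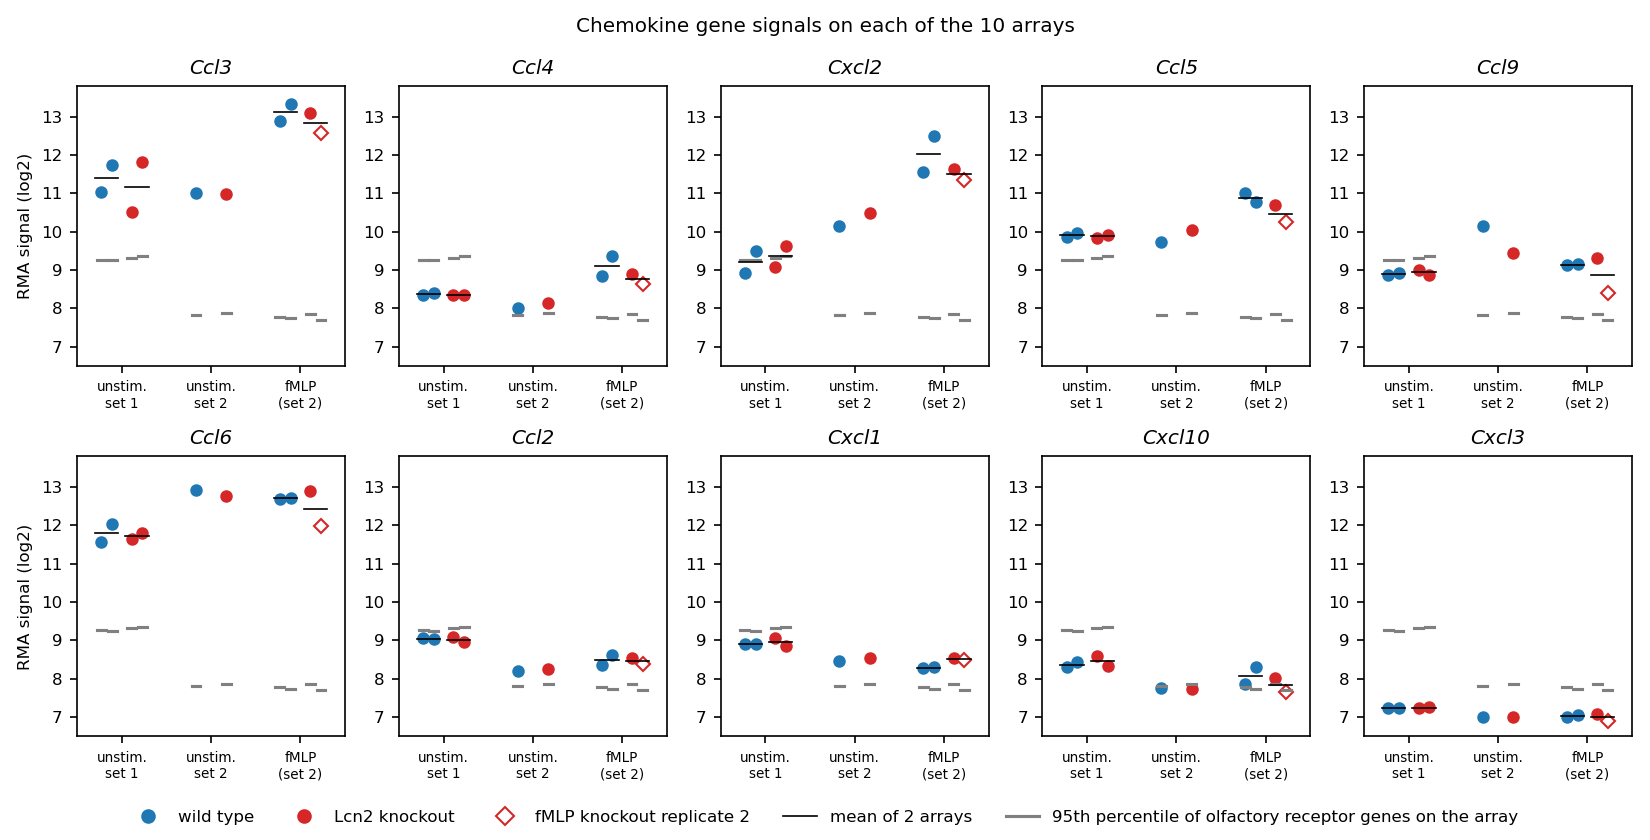
Log2 RMA signal of each chemokine gene on each of the 10 arrays, in 1 panel per gene, with wild type and Lcn2 knockout arrays marked apart and the array of fMLP knockout replicate 2 marked by its own symbol. Black bars are means of 2 arrays and grey bars the 95th percentile of the olfactory receptor probe sets on each array; Ccl3 reaches 12.57 to 13.34 after fMLP, and Cxcl3 lies below the background level throughout.

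After 20 minutes of fMLP, Ccl3, Ccl4, Ccl5 and Cxcl2 were higher on all 4 fMLP arrays than on both unstimulated arrays of set 2, and Ccl9 was lower on all 4 than on both. Ccl2, at a low level, was also higher on all 4. Among all tested genes, 11.9% were higher on all fMLP arrays than on both of these unstimulated arrays, and 20.2% were lower. With all arrays in the fit, 0 of the 9 members tested passed the threshold in the difference averaged over genotype (limma, adjusted p below 0.05), where 27 of 14070 genes, 0.192%, were called. At an unadjusted limma p below 0.05 there were 5 of the 9 members, and 1670 of all tested genes, 11.9%. Without fMLP knockout replicate 2, 5 of the 9 were called, 4 higher (Ccl3, Ccl4, Ccl5, Cxcl2) and 1 lower (Ccl9), where 6.72% of all genes were called, 4.36% higher and 2.35% lower. Without fMLP knockout replicate 1 in its place, 6 members were called, the same 5 and Ccl6 as a further lower one, where 3492 genes, 24.8%, were called. Either omission leaves 1 array in the fMLP knockout group and takes the difference between its 2 arrays out of the residual spread. The median residual SD was 0.176 with all arrays and 0.116 without replicate 2. The unstimulated groups of set 2 hold 1 array each and add nothing to this spread, which comes from set 1 and the fMLP arrays. Every SE of an fMLP difference thus takes no account of how unstimulated arrays of set 2 vary, also for genes below background on set 1. The median difference over the 9 members was 0.25 with all arrays and 0.31 without fMLP knockout replicate 2, against -0.02 and -0.01 over all tested genes. Cxcl3 was not tested, since none of its values exceeded the filter of 8.18, and Ccl4 and Cxcl10 passed that filter on set 1 and fMLP arrays and on no unstimulated array of set 2.

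Ccl3 (probe set 10389231), which encodes macrophage inflammatory protein 1 alpha, a ligand of Ccr1, showed the largest difference of the members. Its values were 11.003 in the wild type and 10.989 in the knockout for unstimulated cells in set 2, 12.89 and 13.34 on the wild type fMLP arrays, and 13.10 and 12.57 on the knockout fMLP arrays. The unstimulated arrays of set 1 gave 11.04 and 11.74 in the wild type and 10.52 and 11.82 in the knockout and are not set against the fMLP values, which are on the scale of set 2. Within set 2 every fMLP array was above both unstimulated ones. In set 2 the mean was 10.996 ± 0.011 (SD, n = 2) without and 12.97 ± 0.32 (SD, n = 4) with fMLP. The log2 difference was 1.98 (SE 0.39, limma adjusted p = 0.204), and without fMLP knockout replicate 2 it was 2.11 (SE 0.35, adjusted p = 0.0113), a 4.31-fold rise. Per array the difference from the unstimulated replicate 3 of the same genotype was 1.88 and 2.34 in the wild type and 2.11 and 1.59 in the knockout.

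Ccl4 (probe set 10379721), the neighbouring gene of macrophage inflammatory protein 1 beta, lay close to background before fMLP. Unstimulated cells of set 2 gave 8.02 in the wild type and 8.13 in the knockout, and the values were 8.85 and 9.36 on the wild type fMLP arrays and 8.89 and 8.64 on the knockout fMLP arrays. The 4 arrays of set 1, whose spread enters the SE, gave 8.34 to 8.40, below their background level of 9.26 to 9.35. Within set 2 the groups did not overlap, and the difference was 0.86 (SE 0.16, limma adjusted p = 0.171). Without fMLP knockout replicate 2 it was 0.92 (SE 0.15, adjusted p = 0.0093), a 1.90-fold rise.

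Cxcl2 (probe set 10523156), macrophage inflammatory protein 2, which acts on Cxcr2, had the second largest difference. It measured 10.15 in wild type and 10.48 in knockout cells without stimulation in set 2, 11.55 and 12.50 on the wild type fMLP arrays, and 11.64 and 11.35 on the knockout fMLP arrays. Set 1 gave 8.92 and 9.50 in the wild type and 9.09 and 9.63 in the knockout. In set 2 every fMLP array was above both unstimulated ones, and wild type replicate 2 was the highest of the fMLP arrays, as it was for Ccl3 and Ccl4. The difference was 1.44 (SE 0.31, limma adjusted p = 0.217) with all arrays and 1.52 (SE 0.29, adjusted p = 0.0184) without fMLP knockout replicate 2, a 2.86-fold rise.

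The related genes Cxcl1 and Cxcl3, whose products share the receptor Cxcr2 with that of Cxcl2, gave no call: the first overlapped between groups and the other was below background. Cxcl1 (probe set 10523151) was 8.46 (wild type) and 8.54 (knockout) without fMLP in set 2 and 8.29, 8.30, 8.55 and 8.49 on the fMLP arrays, with the genotypes in the same order. Its groups overlapped, and the 95% interval of the difference ran from -0.35 to 0.16 (limma, adjusted p = 0.776). Cxcl3 (probe set 10523138) was 7.01 on both unstimulated arrays of set 2 and 6.91 to 7.08 on the fMLP arrays, below the background level everywhere. A change of Cxcl3 within background could not be detected by this probe set. Cxcl1 itself lay near the floor. In set 2 it was 0.51 to 0.78 above the 95th percentile of the olfactory receptor probe sets, and on no array above the 99th. A response of Cxcl1 at that level could be hidden. Of the 3 genes with the shared 11-base palindrome, Cxcl2 was thus higher on all fMLP arrays. Cxcl1 overlapped between groups at a level near background, and Cxcl3 could not be judged.

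**Figure D2:**
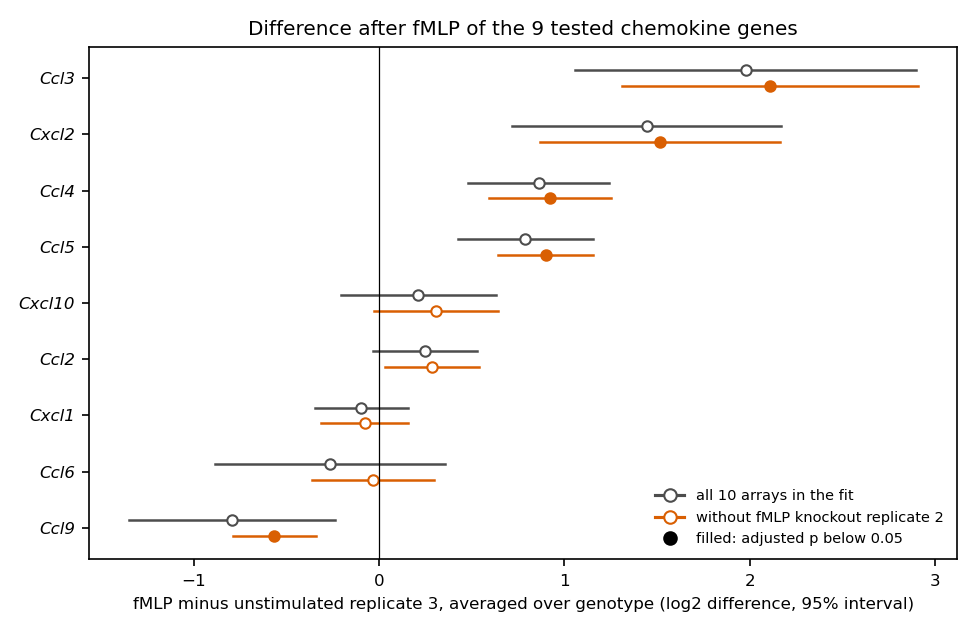
Log2 difference between fMLP and the unstimulated replicate 3 for the 9 tested chemokine genes, averaged over genotype, with all arrays and without fMLP knockout replicate 2. Points are limma estimates, filled where the adjusted p was below 0.05, and bars their 95% intervals; Ccl3 (1.98 and 2.11) and Cxcl2 (1.44 and 1.52) lie farthest above 0, and Ccl9 (-0.79 and -0.56) lies farthest below.

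Ccl5 (probe set 10389207), also called RANTES, is a ligand of Ccr1 and Ccr3 that T and NK cells make in quantity. Without fMLP in set 2 it read 9.74 in the wild type and 10.04 in the knockout; with fMLP it read 11.02 and 10.76 on the wild type fMLP arrays, and 10.69 and 10.25 on the knockout fMLP arrays, and 9.85 to 9.98 on set 1. In set 2 all fMLP arrays were above both unstimulated ones, by the smallest margin for knockout replicate 2, which was 0.21 above the unstimulated knockout. The difference was 0.79 (SE 0.15, limma adjusted p = 0.204) and, without fMLP knockout replicate 2, 0.90 (SE 0.11, adjusted p = 0.0040), a 1.87-fold rise. Of 12 listed markers of T and NK cells 11 were measured, and their mean was 7.83 in the wild type and 8.02 in the knockout without fMLP in set 2. On the fMLP arrays the mean was 8.45 to 8.75, except on knockout replicate 2. There it was 7.92, below the unstimulated knockout of set 2. Nkg7 was 9.45 on that array against 10.82 in the unstimulated knockout, and Cd3d, Cd4, Klrb1c and Klrd1 were lower too. Cd3e (9.20 against 8.86), Cd3g (7.92 against 7.51), Cd8b1 (8.61 against 8.13), Il2rb, Ncr1 and Gzma were higher. Of those 11, 6 were higher on all fMLP arrays than on both unstimulated ones and 1, Nkg7, was lower. Among all tested genes, 11.9% were higher and 20.2% lower in this way. The NK cell genes Klrb1c, Gzma and Klrd1 were below background on every array. Without fMLP knockout replicate 2, the differences of Cd3g and Cd3e of the T cell receptor complex were 1.69 and 1.13. The 4 measured B cell markers went from a mean of 10.82 and 11.28 to 10.90 to 12.01. Of the 4, 1 was higher on all fMLP arrays than on both unstimulated ones. Without fMLP knockout replicate 2 their differences were 1.05 (Cd79b), 0.97 (Cd79a), 0.75 (Ms4a1) and 0.53 (Pax5). The part of these cells in the Ccl5 result was not tested, and in bulk RNA a change in the number of cells of a type and a change in RNA per cell cannot be told apart.

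Ccl9 (probe set 10389214), a ligand of Ccr1 also known as macrophage inflammatory protein 1 gamma, went the other way. Its unstimulated values in set 2 were 10.14 in the wild type and 9.44 in the knockout, and its fMLP values were 9.12 and 9.15 in the wild type and 9.32 and 8.40 in the knockout. The fMLP arrays were all lower than both unstimulated ones, but knockout replicate 1 was lower by 0.12 only, against 1.03, 0.99 and 1.04 for the others. The difference was -0.79 (SE 0.23, limma adjusted p = 0.285) with all arrays and -0.56 (SE 0.10, adjusted p = 0.0132) without fMLP knockout replicate 2. On set 1 Ccl9 was 8.87 to 9.003, below background, and with the array set left out of the model the difference shrank to -0.21. The SE drew on these set 1 arrays (SD 0.02 in the wild type, 0.09 in the knockout) and on the fMLP arrays. It did not draw on the 2 unstimulated arrays of set 2, 1 per genotype, whose SD was 0.50. Monocyte and macrophage markers were lower too. The mean of the 8 measured of 10 listed genes was 10.17 and 10.65 without fMLP in set 2 and 8.47 to 9.42 on the fMLP arrays. Of the 8, 7 were lower on every fMLP array than on both unstimulated ones, where 20.2% of all tested genes were. Markers of eosinophils, basophils and mast cells fell as well, led by Epx, the eosinophil peroxidase gene, at -3.31. With all arrays, 4 of the 6 tested were called lower, where 0.192% of all tested genes were called in either direction. The part of these cells in the Ccl9 result was not tested.

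**Figure D3:**
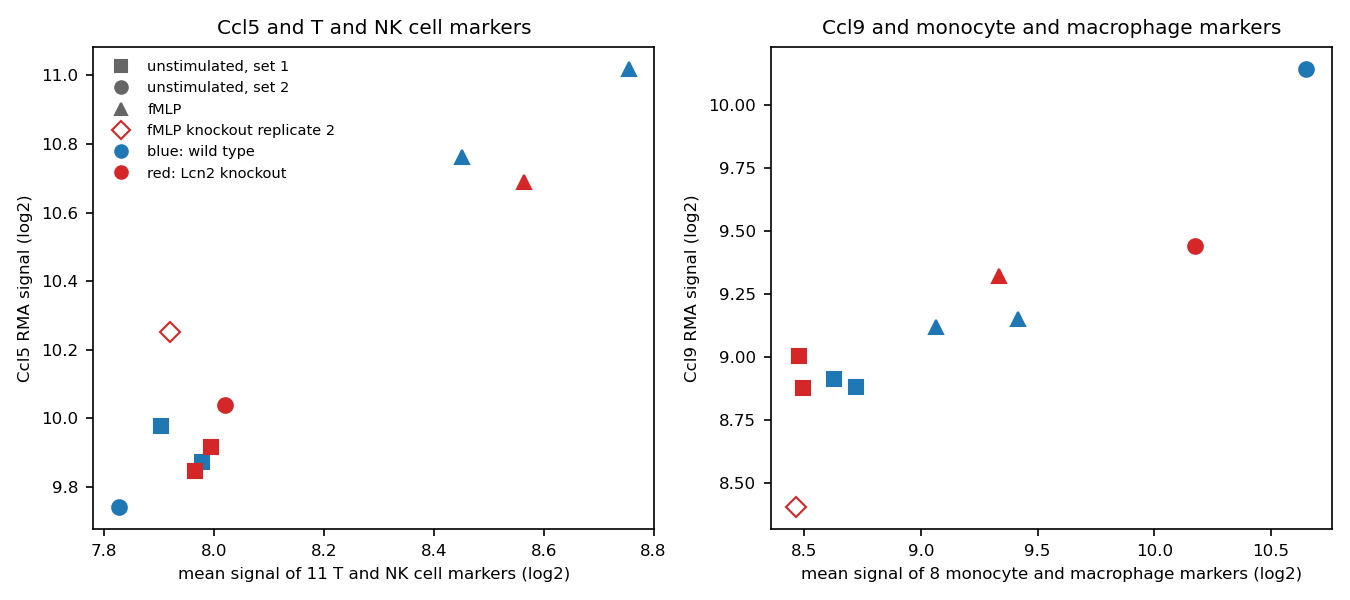
Log2 signal of Ccl5 against the mean of the 11 T and NK cell markers (left) and of Ccl9 against the mean of the 8 monocyte and macrophage markers (right), 1 point per array for all 10 arrays, with shapes for the array set and fMLP and colours for the genotype. In set 2 the T and NK mean runs from 7.83 to 8.75 and the monocyte mean from 10.65 down to 8.47; the relation between genes and markers was not tested.

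Ccl6 (probe set 10389222), which encodes a myeloid CC chemokine that also acts on Ccr1, was far above background on every array and was not called with all arrays or without fMLP knockout replicate 2. In set 2 the unstimulated values were 12.92 in the wild type and 12.77 in the knockout, and the fMLP values were 12.69, 12.73, 12.91 and 11.98 in the order wild type then knockout. The low value was that of knockout replicate 2, and the difference went from -0.27 (95% interval -0.89 to 0.36) to -0.03 (-0.36 to 0.30) without it. Without knockout replicate 1 in its place, Ccl6 was called lower (-0.50, limma adjusted p = 0.0353). On set 1 Ccl6 was 11.56 to 12.04.

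Ccl2 (probe set 10379511), monocyte chemoattractant protein 1, the ligand of Ccr2, was 8.21 in wild type and 8.25 in knockout cells without fMLP in set 2. After fMLP it was 8.37 and 8.62 in the wild type and 8.54 and 8.40 in the knockout, so the fMLP values lay just above. The difference of 0.25 (SE 0.12, limma adjusted p = 0.492), or 0.29 (adjusted p = 0.178) without fMLP knockout replicate 2, did not pass the threshold. Cxcl10 (probe set 10531415), an interferon-induced ligand of Cxcr3, was 7.77 and 7.72 without fMLP in set 2 and 7.86, 8.30, 8.03 and 7.65 on the fMLP arrays, around the background level. Its difference was 0.21 (95% interval -0.20 to 0.63, adjusted p = 0.703).

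Taken genotype by genotype, 2 fMLP arrays stand against 1 unstimulated array, whose spread is assumed to be that of the other groups. With all arrays, limma called 0 genes in the wild type (607 at an unadjusted p below 0.05) and 0 in the knockout (1126). Without fMLP knockout replicate 2, 201 genes, 1.43%, were called in the wild type, and 3 members were among them: Ccl4 (1.09, adjusted p = 0.0337), Ccl5 (1.15, adjusted p = 0.0096) and Ccl9 (-1.01, adjusted p = 0.0094). Ccl3 (2.11, adjusted p = 0.0695) and Cxcl2 (1.87, adjusted p = 0.0512) missed the threshold there. In the knockout, then 1 array against 1, 51 genes, 0.362%, and 0 members were called, with Ccl3 at 2.11, Cxcl2 at 1.16, Ccl4 at 0.76, Ccl5 at 0.65 and Ccl9 at -0.12.

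The test of the difference between these responses called 0 genes with all arrays (13 at an unadjusted p below 0.05) and 0 without fMLP knockout replicate 2 (49). Over the members the estimates ran from -0.85 to 0.43 with all arrays, with wide intervals: for Ccl3, -0.26 with a 95% interval from -2.11 to 1.58. Such an interval does not show that the genotypes responded alike. For Ccl9 the estimate went from 0.43 (SE 0.47, adjusted p = 0.992) to 0.89 (SE 0.20, unadjusted p = 0.0015, adjusted p = 0.9999), the latter resting on 1 knockout fMLP array. For Ccl5 the estimate was -0.72 (adjusted p = 0.992) and -0.50 (adjusted p = 0.9999), and without fMLP knockout replicate 1 it was -0.94 (adjusted p = 0.0256), where 2527 genes, 18.0%, were called.

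Loss of Lcn2 was compared without and with fMLP. In unstimulated cells, 1 of 14070 genes was called (0.00711%) with all arrays and without fMLP knockout replicate 2, Lcn2 itself, and with all arrays 53 had an unadjusted p below 0.05. The 9 members differed by -0.21 to 0.21 and none was called. Each estimate rested more on set 1, with replicates 1 and 2 of each genotype, than on set 2, with replicate 3 alone. On set 1, Ccl4, Ccl2, Ccl9, Cxcl1 and Cxcl10 were below background on every array, and Cxcl2 was above it on 2 of 4. A genotype difference in these genes could be hidden there, so the narrow range does not exclude one. Ccl9 had the lowest estimate, -0.21 (95% interval -0.73 to 0.32), with 0.04 within set 1 and -0.70 within set 2, where 1 array stands against 1. Cxcl2 had the highest, 0.21 (95% interval -0.48 to 0.90), with 0.15 within set 1 and 0.32 within set 2. After fMLP, 0 genes were called with all arrays (634 at an unadjusted p below 0.05), and the members ran from -0.53 for Cxcl2 (95% interval -1.37 to 0.31) to 0.22 for Cxcl1. Even Lcn2, the deleted gene, was missed by this test. It was 8.42 and 9.60 on the knockout fMLP arrays, against 13.88 to 14.16 on wild type arrays. The lack of member calls after fMLP therefore cannot exclude an effect of genotype on them. Ccl5 was -0.42 (SE 0.18, limma adjusted p = 0.515) and -0.20 without fMLP knockout replicate 2. That estimate was -0.64 (adjusted p = 0.0079) without fMLP knockout replicate 1, when 5888 genes, 41.8%, and 3 members were called, all 3 lower.

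The receptors that these chemokines act on were read from the same arrays. Of the receptor genes listed, 22 were measured and 17 tested. Cxcr2, the neutrophil receptor of Cxcl1, Cxcl2 and Cxcl3, was 13.27 to 13.32 without fMLP in set 2 and 12.38 to 13.23 after fMLP, and Ccr1, the receptor of Ccl3, Ccl5, Ccl6 and Ccl9, was 11.18 to 11.39 and 10.05 to 11.42. Neither was called. Ccr2, the receptor of Ccl2 and a monocyte marker, fell from 9.53 ± 0.75 (SD, n = 2) to 7.45 ± 0.30 (SD, n = 4), a difference of -2.08 (SE 0.20, limma adjusted p = 0.0300), and was the 1 receptor called with all arrays. Without fMLP knockout replicate 2, 4 receptors were called higher and 2 lower, where 4.36% of all tested genes were called higher and 2.35% lower. The higher ones were Ccr7 (1.93, adjusted p = 0.00058), which guides lymphocytes and dendritic cells to lymph nodes, Ccrl2 (1.22, adjusted p = 0.0090), an atypical receptor, and, named after their values were seen, Cxcr5 (1.56) of B cells and Cxcr4 (0.52), which holds neutrophils in bone marrow. The lower ones were Ccr2 (-1.94) and Ccr3 (-0.82, adjusted p = 0.0050), the eotaxin receptor of eosinophils. In that same fit 4 of 4 B cell markers were called higher, and 5 of 8 monocyte markers and 5 of 6 markers of eosinophils, basophils and mast cells lower, and their part in the receptor values was not tested. The formyl peptide receptor genes had no single-gene probe set, and probe sets that name several genes were not used, so the receptor of fMLP was not read here.

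**Figure D4:**
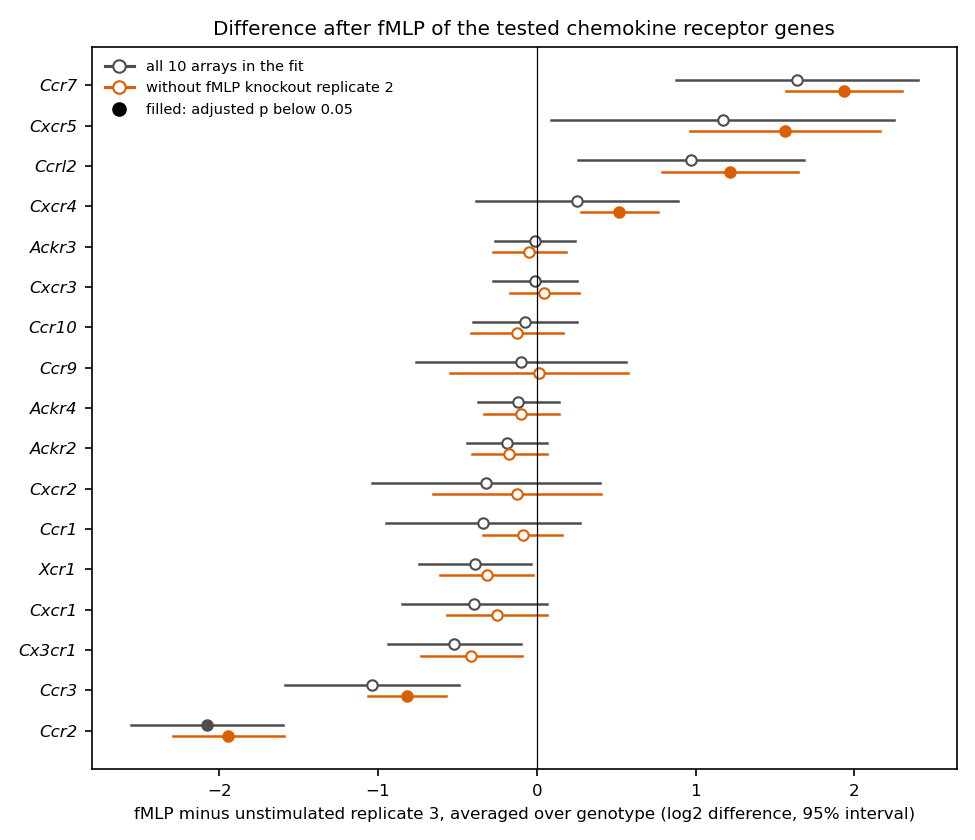
Log2 difference between fMLP and the unstimulated replicate 3, averaged over genotype, for the tested chemokine receptor genes with all arrays and without fMLP knockout replicate 2. Points are limma estimates, filled where the adjusted p was below 0.05, and bars their 95% intervals; Ccr7 (1.64 and 1.93) lies highest and Ccr2 (-2.08 and -1.94) lowest.

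With all arrays, none of the other chemokine ligands tested was called. Over all tested genes 0.192% were called, so a count of 0 among 15 genes does not set these ligands apart. Of 25 measured, 15 were tested, 10 of these were above background on both unstimulated arrays of set 2 and 8 on all fMLP arrays, and a change of the rest would not have been readable. Of the 15, 0 had an unadjusted limma p below 0.05 with all arrays, against 11.9% of all tested genes. Their differences ran from -0.24 (Cxcl9, an interferon-induced gene) to 0.19 (Cxcl17), with a median of -0.07 against -0.02 over all tested genes. Cytokine genes that neutrophils transcribe early gave 0 called of 6 tested of 12. Osm, the gene of oncostatin M, was the nearest with 0.90 (SE 0.31, limma adjusted p = 0.338), and Il1b, the interleukin 1 beta gene, differed by 0.76 (SE 0.46).

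Genes of NF-kB and its inhibitors, which NF-kB itself induces in part, were 0 called of 14 tested with all arrays and 6 of 14 higher without fMLP knockout replicate 2, with medians of 0.21 and 0.39. Over all tested genes 0.192% were called with all arrays and 4.36% were called higher without that array, with medians of -0.02 and -0.01. Nfkbid, an atypical inhibitor protein, differed by 1.51 with all arrays and 1.70 without that one (limma adjusted p = 0.0022). Tnfaip3, which encodes the A20 brake on NF-kB signalling, differed by 1.28 and 1.54 (adjusted p = 0.00022). Nfkb2 (0.79) and Nfkbiz (0.72) were called in the second fit too, as were Nfkbie and Nfkbib, which are named here because the count is small. Among 8 genes of proteins that bind AU-rich elements in short-lived messages, 0 were called with all arrays. In the fit without fMLP knockout replicate 2, Zfp36l1, a decay factor, was called higher (1.29, adjusted p = 0.0059) and Hnrnpd lower (-0.51, adjusted p = 0.0287). Of 11 interferon response genes tested, 0 were called with all arrays and 2 in that fit, Irf7 (0.86) and Oas2 (0.44).

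The genes whose profile over the 6 arrays of set 2 was nearest to that of Ccl3, by the mean absolute distance of values centred on each gene's mean, were Nr4a1 (0.10), Acod1 (0.14), Cd14 (0.18), Atf3 (0.18) and Fosb (0.19), out of 14070 tested genes. Nr4a1, Atf3 and Fosb encode transcription factors of the immediate early response, Acod1 the enzyme that makes itaconate, and Cd14 a coreceptor for lipopolysaccharide. Over the 5 arrays without fMLP knockout replicate 2 the nearest were Acod1, Plk2, Nr4a1, Cd69 and Fosb. Of the other members, Cxcl2 was nearest to Ccl3, at rank 18 with a distance of 0.30, followed by Ccl4 at rank 64 (0.50) and Ccl5 at rank 89 (0.54). Ccl9 was among the farthest, at rank 13836. Distances depend on the size of the change as well as on its shape, and no test was made of them.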

How the data were processed

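The 10 arrays carry RMA signals, which the authors made with Affymetrix Expression Console per the submitters' processing notes; the scale of the deposited values is not named and was read as log2 because of the range they span. Of 35556 probe sets, 21789 name 1 gene in the array annotation, 1621 several and 12146 none. The brightest probe set on average stood for each of 19938 genes, and 14070 genes with at least 2 arrays above 8.18, the median of all values, were tested. limma 3.58.1 in R 4.3.3 fitted 6 groups (genotype and stimulus, unstimulated arrays split by array set, set 1 being the arrays with an interquartile range under 2) with 4 residual degrees of freedom. Tests were two-sided with Benjamini-Hochberg adjustment over all tested genes at 0.05. All fits were repeated without fMLP knockout replicate 2. Arrays have no read depth; their number limits the precision. On simulated data for the average fMLP difference over 14070 genes, 72 of 100 changes of size 1 and 94 of 100 of size 2 were recovered with all arrays, with 7 false calls. The simulated noise was independent between arrays and had each gene's residual SD, also on the single unstimulated arrays of set 2. It held no shift shared by many genes of an array, such as that of fMLP knockout replicate 2, so real changes may be recovered less often.

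The members, the lists (other chemokine ligands, receptors, NF-kB, early cytokines, AU-rich element binding proteins, interferon response, cell type markers) and the treatment of array sets were chosen with earlier results of these data known. Genes named were all members, Lcn2, up to 4 tested genes of each list with the smallest p, the 5 genes nearest to Ccl3 (with all arrays and without fMLP knockout replicate 2), and Xist, Eif2s3y and Snap25. Outside this rule, and after their values were seen, Ccr1, Cxcr4, Cxcr5, Nfkbie, Nfkbib, Nkg7, Klrb1c, Gzma, Klrd1, Cd3d, Cd4 and Ncr1 were named. Alternatives tried were quantile normalization, median centring, other filters, the mean of probe sets, a variance trend, models without the array set or with it as an additive term, set 2 alone, a replicate block and leaving out each array.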

Additional observations from a re-analysis of the deposited data

How the results depend on the processing

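The number of members called in the fMLP difference averaged over genotype was 0 with all arrays and 0 under every alternative other than leaving out an array, where it ran from 0 to 6. Leaving out an array likewise gave 0 to 3 members in the wild type, 0 to 2 in the knockout, 0 to 1 for the difference of the responses and 0 to 3 for knockout against wild type after fMLP, with counts above 0 only when fMLP knockout replicate 1 or 2 was left out; for unstimulated cells it stayed at 0. Counts over all genes for the average difference were 27 in the main fit, 17 with median centring, 10 without a filter, 10 without the array set, 48 with the array set as an additive term and 0 with set 2 alone. Leaving out an array gave 0 to 3492 genes. The wild type and knockout counts became 11 and 12 with the additive term. Members above background on all fMLP arrays numbered 5 in place of 8 with the 99th percentile of the olfactory receptor probe sets.

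Signs turned mainly when 4 groups were fitted without the array set: Ccl2 (-0.29), Ccl6 (0.45) and Cxcl10 (-0.24) in the average, Ccl6 in the wild type (0.54) and in the knockout (0.36), and Ccl9 in the difference of the responses (-0.066, and -0.066 with the additive term). By its construction that model sets fMLP arrays against set 1 as well. With an array left out, Ccl6 in the knockout ran from -0.79 to 0.14, Ccl9 in the difference of the responses from -0.028 to 0.89, and Ccl9 in unstimulated knockout against wild type from -0.25 to 0.044.

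Replicate numbers were not taken to pair the arrays, since the labels do not say that they do and the correlation was low in most pairs of groups: the differences between replicates 1 and 2 correlated at 0.46 between the unstimulated genotypes, at 0.06 between the fMLP groups and at -0.16 to -0.04 otherwise. With the replicate block, 0 members and 4 genes were called in the average difference. Without unstimulated replicate 3 of a genotype, its fMLP difference could not be fitted. At 2 arrays against 4, an exact permutation test could not go below p = 0.0667.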
